A study of Rattus norvegicus with 3 samples.

Results

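The 9 genes described here encode the chemokine receptors Cxcr4 and Ccr1 and the chemokine ligands Cxcl12, Cx3cl1, Cxcl16, Ccl2, Ccl3, Ccl4 and Cxcl10. They were chosen by name, as ligands and receptors of the chemokine system, and are 9 of the 18425 genes measured by RNA sequencing of the neonatal rat retina. All 3 groups were wild-type Sprague-Dawley rats that received an intravitreal injection of 1 µl at postnatal day 1 (P1) and whose retinas were collected at P4. The Buffer group received citrate buffer at pH 4.5, the vehicle of streptozotocin (STZ). The Saline group received saline, and the STZ group received 10 µg of STZ, a nitrosourea-linked sugar that alkylates DNA. The study describes injecting STZ into right eyes and citrate buffer into left eyes of the same rats. Whether the sequenced Buffer and STZ retinas came from the same rats is not given. Each group had 1 library, and the sources used here do not say how many retinas it held. No difference below therefore has a replicate check, and no p-value is given. The 3 libraries held 21992701, 21977846 and 22031241 reads assigned to genes in Buffer, Saline and STZ. Retinal genes were abundant in all of them, with 12972, 11780 and 13849 reads of the photoreceptor precursor factor Crx.

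Chemokines are small secreted or membrane-tethered proteins that act through G protein-coupled receptors to direct the movement of cells. In the developing retina, Cxcl12 and its receptor Cxcr4 are known for guiding ganglion cell axons, progenitors and growing vessels, and Cx3cl1 on neurons is known for its signal to Cx3cr1 on microglia. Ccl2, Ccl3, Ccl4 and Cxcl10 belong to the inducible group, which is near silent in resting tissue and is made by glia, microglia and infiltrating leukocytes in inflammation.

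Promoter sequence was looked up for the 9 genes in RefSeq (assembly GRCr8), and 6 of them had an entry of the 250 bases before the transcription start. The promoters of Cxcr4 and Cxcl10 are shown because they belong to the most abundant receptor and to the inducible ligand that was listed at 0 reads in Buffer. The Cxcr4 promoter is chr13:42634289-42634538 on the minus strand, and the Cxcl10 promoter is chr14:15988816-15989065 on the plus strand. Both are written 5′ to 3′ in the direction of transcription. Capitals mark matches on either strand to 3 motifs: the interferon-stimulated response element, written as GAAA, any 2 letters and GAAA; the NF-kB site, written as GGGA, any 4 letters and CC; and the TATA box, TATAAA.
Cxcr4: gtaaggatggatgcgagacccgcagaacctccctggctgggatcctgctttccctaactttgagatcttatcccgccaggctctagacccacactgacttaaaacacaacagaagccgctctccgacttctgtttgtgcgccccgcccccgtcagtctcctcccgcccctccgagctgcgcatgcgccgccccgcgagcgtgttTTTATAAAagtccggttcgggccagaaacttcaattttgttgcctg
Cxcl10: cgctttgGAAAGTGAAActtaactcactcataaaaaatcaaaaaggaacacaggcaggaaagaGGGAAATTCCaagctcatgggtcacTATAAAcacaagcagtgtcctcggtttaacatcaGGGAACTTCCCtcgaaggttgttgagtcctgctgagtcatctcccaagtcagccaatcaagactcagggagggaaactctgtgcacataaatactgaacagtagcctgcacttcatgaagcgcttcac

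The Cxcl10 promoter held all 3 motifs, while the Cxcr4 promoter held the TATA box only, in an 8-letter run that matches on both strands. In Cxcl10 the match to the interferon-stimulated response element began 243 bases before the start, and the matches to the NF-kB site began 187, 128 and 127 bases before it, the last of these overlapping on the opposite strand. Of the 6 promoters, only that of Cxcl10 held the interferon-stimulated response element, which was present in 3.41% of the 33469 promoters in the table. It was also the only one of the 6 with the NF-kB site, which 16.4% of all promoters held. The TATA box was found in the promoters of Cx3cl1, Cxcl10 and Cxcr4, and in 12.9% of all. Its letters began 162 bases before the start in Cxcl10, 78 in Cx3cl1 and 44 in Cxcr4 on the transcribed direction. A match of letters is a description and not a site of binding, which was not measured here. The GC content was 45.2% for Cxcl10, 57.6% for Cxcr4 and 67.6% for Cxcl12, against a median of 51.2% over all promoters.

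Levels between genes were compared as FPKM, a measure of fragments that divides out transcript length and library size. On this scale Cxcr4 stood far above the other 8 genes in every library, with 65.99 FPKM in the Buffer library, 64.4 in Saline and 48.21 in STZ. Cxcl12 came next with 9.58, 10.17 and 12.01. Cx3cl1 and Cxcl16 followed at 0.89 to 1.81 FPKM, and the other 5 genes lay between 0 and 1.21. The intervals of Cxcr4, Cxcl12 and the gene in the third place did not overlap in any library. From the third place down, each gene overlapped with its neighbor in the order where both had an interval. Cxcl10 and Ccr1, listed at 0 reads in Buffer, had no FPKM interval in that library. The FPKM of Cxcr4 exceeded that of 92.1% of the genes in Buffer and of 91.8% in Saline, against 88.0% in STZ. Cxcl12 was above 54.3%, 55.1% and 58.1% of the genes in the same libraries. The ratio of receptor to ligand FPKM for this pair was 6.89 in Buffer and 6.33 in Saline, against 4.01 in STZ.

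**Figure D1:**
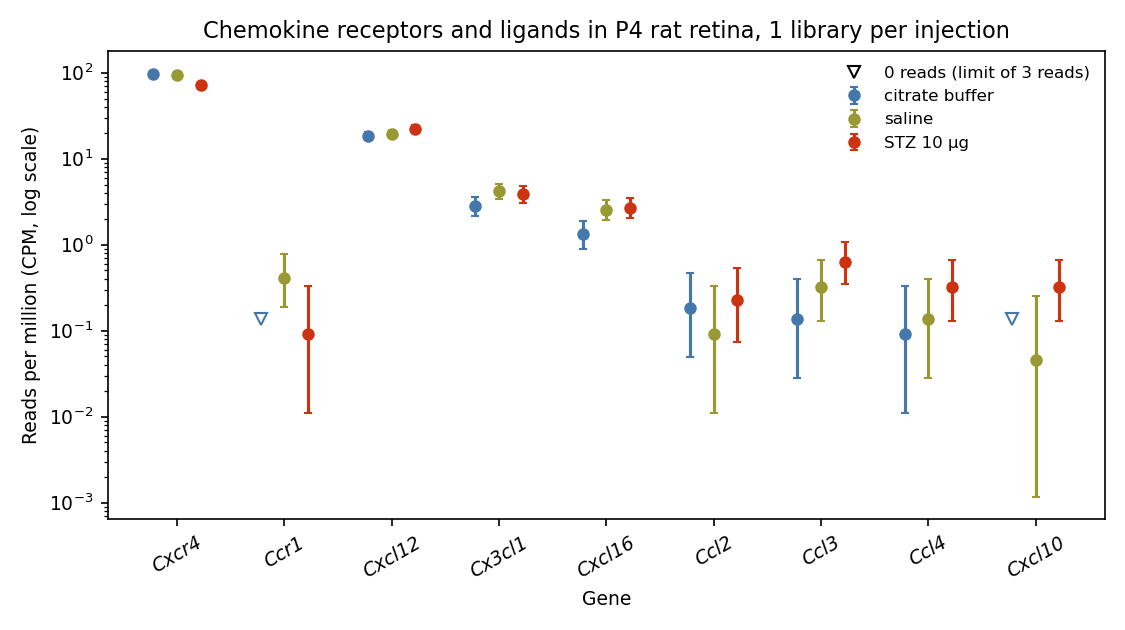
CPM, the reads of a gene scaled to the library total (log scale), for each of the 9 genes, with 1 point for each of the Buffer, Saline and STZ libraries and exact Poisson 95% intervals that cover counting error only. Open triangles mark genes listed at 0 reads, drawn at the limit of 3 reads. Cxcr4 has 1569 reads in STZ against 2143 in Buffer and 2088 in Saline, and the inducible ligands at the right, with 0 to 14 reads, have wide intervals that overlap between most libraries.

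Expression folds were computed with the formula of the study, (FPKM + 1)/(FPKM + 1), and a gene counted as deregulated when its fold was above 1.54 or below 0.65. The added 1 shrinks the fold of a gene with a low FPKM. Beside the fold stands the count ratio, obtained by dividing a gene's share of all reads in one library by its share in the other, and its 95% interval is exact (Clopper-Pearson). No molecular identifiers are described and reads may be copies of each other, so these intervals cover counting error only and compare libraries, not conditions. By the fold rule, 1 of the 9 genes was higher in STZ than in Buffer, where 2.25% of all genes were, and 0 were lower, where 1.04% of all genes were. Against Saline, 0 of the 9 genes passed in either direction, where 2.04% of all genes were higher in STZ and 1.75% were lower. Between Saline and Buffer, 0 of the 9 passed, where 1.00% of all genes were higher in Saline and 0.429% were lower. The 1 gene that passed was Ccl3, and no gene passed against both controls. With CPM, the reads scaled to the library total, in place of FPKM, the fold of Ccl3 was 1.44 and no longer passed, while that of Cxcl16 was 1.59 and did.

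The counting interval was used as a second rule for the 4 of the 9 genes with a mean of at least 10 reads, Cxcr4, Cxcl12, Cx3cl1 and Cxcl16. In STZ against Buffer, 2 of the 4 had an interval above 1, where 26.2% of 14885 genes with that mean did, and 1 had an interval below 1, where 18.8% did. In STZ against Saline, 1 was above, where 26.9% of the genes were, and 1 was below, where 23.5% were. In Saline against Buffer, 2 were above 1, where 15.9% of the genes were, and the intervals of the others held 1. With 4 genes, nothing particular to chemokine genes was read from these counts. The 2 comparisons of STZ share the STZ library, and both comparisons with Buffer share the Buffer library, so the values are given side by side.

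Cxcr4, the G protein-coupled receptor for Cxcl12, was lower in the STZ library than in both controls. It had 2143 reads in Buffer, 2088 in Saline and 1569 in STZ. Its low library was thus STZ, and the controls lay close together. The count ratio was 0.731 (95% interval 0.684 to 0.780) for STZ against Buffer and 0.750 (0.702 to 0.801) for STZ against Saline, while the interval for Saline against Buffer, 0.918 to 1.04 around a ratio of 0.975, held 1. The fold of Cxcr4 was 0.735 against Buffer and 0.752 against Saline, −0.44 and −0.41 on the log2 scale. Neither fold was below 0.65, so Cxcr4 was not deregulated by the rule of the study, although its reads differed by more than counting error in both comparisons.

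Summed markers of some cell types that are known to use Cxcr4, or that lie beside such cells, were also lower in the STZ library. Those of ganglion cells, whose axons Cxcl12 and Cxcr4 are known to guide, were higher, as were those of microglia. The summed reads of 10 endothelial markers were 14504 in Buffer, 15720 in Saline and 10693 in STZ, a ratio of 0.736 for STZ against Buffer. Most of these reads came from Kdr, a VEGF receptor that retinal progenitors also express, and the sum of the other 9 markers, led by Flt1 and Cldn5, gave a ratio of 0.531. The 10 retinal progenitor markers, led by Ccnd1 and Pax6, summed to 57547, 58886 and 43149 reads, a ratio of 0.748, and to a ratio of 0.905 without the cyclin gene Ccnd1. The 4 astrocyte markers, led by Pdgfra, Gfap and Pax2, summed to 1073, 1098 and 520 reads, a ratio of 0.484, and the 6 pericyte markers, led by Notch3, Pdgfrb and Abcc9, to 954, 921 and 639, a ratio of 0.669. The lists of ganglion cells and microglia went the other way, with ratios of 1.15 and 2.34 for STZ against Buffer. In bulk RNA, fewer cells of a type and less RNA per cell cannot be told apart, and the part of these lists in the level of Cxcr4 was not tested.

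The 5 genes whose pattern over the 3 libraries was most like that of Cxcr4 were Mga, Iws1, Glcci1, Tcf3 and Tead2. Likeness was measured as the Euclidean distance over the log2 count ratios of STZ to Buffer and Saline to Buffer, over the 5678 genes that averaged 1000 reads or more. The distances ran from 0.00842 for Mga to 0.0212 for Tead2, and 25 genes lay within 0.05. For Mga the reads were 3267, 3190 and 2379 in the order Buffer, Saline and STZ, and for Tead2 they were 2438, 2341 and 1782.

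Ccr1, a receptor for Ccl3 and other CC ligands that is found mainly on myeloid cells, was the only receptor of the 9 near the limit of detection. It was listed at 0 reads in Buffer, at 9 in Saline and at 2 in STZ. The reads thus stood out in Saline, not in STZ. A count of 0 allows up to 3 reads, and against that limit the share in Saline was at least 3.0-fold higher than in Buffer, a bound that leaves out the counting error of the 9 reads. STZ against Saline had a count ratio of 0.222 with an interval of 0.0233 to 1.07, which held 1, and no ratio was computed for STZ against Buffer because both lay at or under 3 reads. The 8.87 reads deposited for Saline were rounded, and this was 1 fractional count among the 27 values of the 9 genes.

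Cxcl12, the stromal ligand of Cxcr4 and Ackr3, was slightly higher in STZ, opposite in direction to its receptor. The reads were 408 in Buffer, 428 in Saline and 492 in STZ. Its count ratio was 1.20 (1.05 to 1.38) against Buffer and 1.15 (1.00 to 1.31) against Saline, and the lower bound of the second lay just above 1. Saline against Buffer had a ratio of 1.05 with an interval of 0.914 to 1.21 that held 1. The folds of 1.23 and 1.16 stayed within the thresholds of the study.

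Cx3cl1 (fractalkine), the membrane-tethered ligand that neurons present to microglia, had 62 reads in Buffer, 92 in Saline and 85 in STZ. Buffer was the low library, and the other libraries lay close together. The interval of STZ against Buffer, 0.975 to 1.93 around a ratio of 1.37, held 1, as did that of STZ against Saline, 0.678 to 1.25 around 0.922. Only Saline against Buffer, with a ratio of 1.48 (1.06 to 2.08), had an interval above 1.

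Cxcl16, the other membrane-tethered ligand, which also acts as a scavenger receptor, also had its low value in Buffer. It had 29 reads in Buffer, 56 in Saline and 59 in STZ. Its count ratio was 2.03 (1.28 to 3.29) for STZ against Buffer and 1.93 (1.21 to 3.14) for Saline against Buffer, and 1.05 (0.717 to 1.54) between STZ and Saline. The fold of 1.49 against Buffer stayed under 1.54. STZ and Saline thus lay together above Buffer. In RefSeq, Cxcl16 overlaps Zmynd15, and the use of strand in the counting is not given in the sources used here. The reads of Zmynd15 were 32, 32 and 33 in the same order and did not move with those of Cxcl16.

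Reads of marker genes of other eye tissues also differed between the libraries. The summed reads of 8 markers of the pigment, ciliary and iris epithelium were 2441 in Buffer, 9284 in Saline and 2474 in STZ, a ratio of 3.81 for Saline against Buffer. The list was led by Aldh1a1 with 1904, 6838 and 1904 reads, Pmel with 252, 940 and 240, and Gja1 with 169, 876 and 214. The 5 lens markers summed to 177, 412 and 2277 reads, a ratio of 12.8 for STZ against Buffer. Cryaa had 55, 211 and 928 reads, Cryba1 had 22, 62 and 731 and Crygd had 25, 56 and 519. Not every lens marker followed these crystallin genes. Mip had 73 reads in Buffer and a ratio of only 1.18 for STZ against Buffer. The part of these tissues in the reads of Cx3cl1, Cxcl16, Ccr1 and the other genes was not tested.

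Among the inducible ligands, Ccl3 (MIP-1α), a ligand of Ccr1, had 3 reads in Buffer, 7 in Saline and 14 in STZ. STZ was the highest library and Saline lay between. The fold was 1.75 against Buffer, past the threshold, and 1.37 against Saline, which was not. The count ratio was 4.66 (1.30 to 25.3) against Buffer, whereas the intervals of STZ against Saline, 0.754 to 5.84 around 2.0, and of Saline against Buffer, 0.533 to 14.0 around 2.33, held 1. The one chemokine gene of the 9 that passed the rule of the study thus rested on 3 reads in the control. In RefSeq, Ccl3 and its neighbor Ccl6 both overlap an uncharacterized gene, LOC103693406, so part of their reads may be shared.

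Ccl4 (MIP-1β), a CC ligand whose gene lies next to Ccl3 in RefSeq, had 2 reads in Buffer, 3 in Saline and 7 in STZ, and its libraries had the order of Ccl3. The interval of the count ratio held 1 against Buffer, 0.665 to 34.5 around 3.49, and against Saline, 0.531 to 14.0 around 2.33. Its FPKM gave another order, with 0.72 in Buffer, 0.25 in Saline and 0.59 in STZ, and a fold of 0.924 for STZ against Buffer. The FPKM per read of Ccl4 was 4.27 times as high in Buffer as in STZ, so its direction depended on the deposited unit, and no direction is given for it.

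Cxcl10 (IP-10), the interferon-inducible ligand whose promoter is shown above, was listed at 0 reads in Buffer, at 1 in Saline and at 7 in STZ. Against the limit of 3 reads that a count of 0 allows, its share in STZ was at least 2.33-fold higher than in Buffer, a bound that leaves out the counting error of the 7 reads. Against Saline the ratio was 6.98, with an interval of 0.897 to 315 that held 1. The folds of 1.35 and 1.29 did not pass. In RefSeq, Cxcl10 lies between Cxcl11 and Cxcl9 and overlaps Art3, which had 3, 5 and 3 reads. The neighboring ligands did not show the order of Cxcl10. Cxcl9 had 8, 2 and 5 reads and Cxcl11 had 3, 1 and 3.

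Ccl2 (MCP-1), the main monocyte attractant, showed no difference that these reads could resolve. It had 4 reads in Buffer, 2 in Saline and 5 in STZ, and its intervals ran from 0.269 to 6.29 around a ratio of 1.25 against Buffer and from 0.408 to 26.2 around 2.49 against Saline. Its receptor gene Ccr2 has no value used here. Summed, Ccl2, Ccl3, Ccl4 and Cxcl10 had 9 reads in Buffer, 13 in Saline and 33 in STZ. This sum is a description, since 14 of the 33 reads in STZ were those of Ccl3.

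Microglia and leukocytes, which are known sources of the inducible ligands and carry their receptors, were represented by 3 further marker lists. The 9 microglia markers summed to 909 reads in Buffer, 1048 in Saline and 2132 in STZ, a ratio of 2.34 against Buffer and 2.03 against Saline. All 9 had a counting interval above 1 in both comparisons, where 26.2% and 26.9% of all genes with a mean of at least 10 reads did. They were led by Csf1r with 449, 540 and 905 reads, Aif1 with 86, 95 and 273 and Cx3cr1 with 82, 71 and 233. The 5 neutrophil markers with a value summed to 54, 59 and 114 reads. These came mainly from Csf3r with 36, 43 and 74 reads, a ratio of 2.05 (1.36 to 3.15) against Buffer and 1.72 (1.16 to 2.56) against Saline, and from Ngp with 18, 9 and 32, which passed the fold rule against Saline. The defining markers S100a9, S100a8 and Mpo had 5 reads or fewer in each library. Of the T cell list, 3 of 6 genes had a value, with sums of 146, 186 and 234 that came mostly from Cd4, which microglia can also express, followed by Lck and Cd8a. The part of these cells in the reads of Ccl3, Ccl4 and Cxcl10 was not tested.

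**Figure D2:**
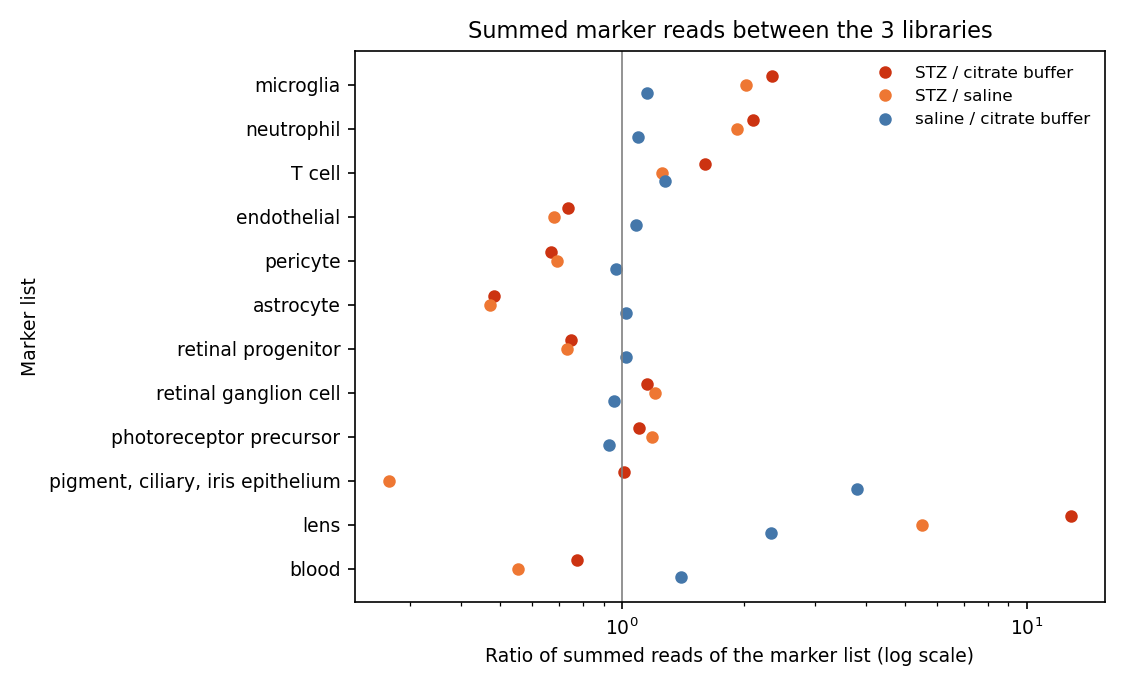
Ratio of the summed reads of each cell type marker list (horizontal axis, log scale) for STZ over Buffer, STZ over Saline and Saline over Buffer, 1 library each. The microglia list lies at 2.34 and 2.03 in STZ and the endothelial, pericyte, astrocyte and progenitor lists lie below 1, while the pigment, ciliary and iris list departs in Saline (3.81 over Buffer) and the lens list departs most in STZ (12.8 over Buffer).

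The wider family set the 9 genes in context. A list of 59 chemokine ligand and receptor genes, the 9 included, had 47 genes with a value. Of these, 19 had 3 reads or fewer in every library and 13 had a mean of at least 10 reads. By the fold rule, 6 of the 47 were higher in STZ than in Buffer and 0 were lower, where 2.25% and 1.04% of all genes were. Against Saline, 2 were higher and 1 was lower, where 2.04% and 1.75% of all genes were. Between Saline and Buffer 3 were higher and 2 were lower, where 1.00% and 0.429% of all genes were. The median log2 fold over the 13 genes was 0.17 in STZ against Buffer, where it was 0.028 over all genes with that mean, and 0.049 in STZ against Saline, where it was 0.013.

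The receptors that pair with the 9 genes differed among themselves. Cx3cr1, the microglial receptor for Cx3cl1, had 82 reads in Buffer, 71 in Saline and 233 in STZ. Its count ratio was 2.84 (2.20 to 3.69) against Buffer and 3.27 (2.50 to 4.33) against Saline, and its folds of 2.42 and 2.70 passed against both controls. Its ligand Cx3cl1 did not pass in either. Ackr3, the atypical receptor that takes up Cxcl12, had 714, 820 and 719 reads, with a ratio of 1.01 (0.905 to 1.12) for STZ against Buffer and of 0.875 (0.790 to 0.968) against Saline. Its ratio for Saline against Buffer was 1.15 (1.04 to 1.27). Cxcr6, the receptor for Cxcl16, had at most 1 read in each library, and Cxcr3, the receptor for Cxcl10, has no value used here.

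Of the other ligands, Ccl6, Cxcl13, Cxcl17 and Pf4 were higher in STZ than in Buffer by the fold rule, and Ccl6 alone of them also passed against Saline. Ccl6 had 1, 1 and 6 reads, and both of its intervals held 1. Pf4, a platelet chemokine, had 0, 5 and 7 reads, and its fold was 4.42 with Buffer as the control and 1.27 with Saline. Cxcl14, a chemokine of epithelia, had 598, 526 and 678 reads, and its ratio was 1.13 (1.01 to 1.27) against Buffer and 1.29 (1.15 to 1.44) against Saline. Cxcl13, the B cell attractant, had 11, 31 and 29 reads, with the low value in Buffer as for Cxcl16. Cxcl17 had 7, 12 and 19 reads. Ccl27 had 125, 82 and 117 reads and Ccr10, its receptor, had 23, 15 and 26, low in Saline for both. All intervals of Ccr10 held 1, whereas that of Ccl27 for Saline against Buffer, 0.491 to 0.874, lay below 1. Ccl27 overlaps Il11ra1 and Ccr10 overlaps Cntnap1 in RefSeq, so their reads are uncertain. The atypical receptor Ackr1 had 529, 533 and 493 reads, and its intervals held 1 in all 3 comparisons.

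**Figure D3:**
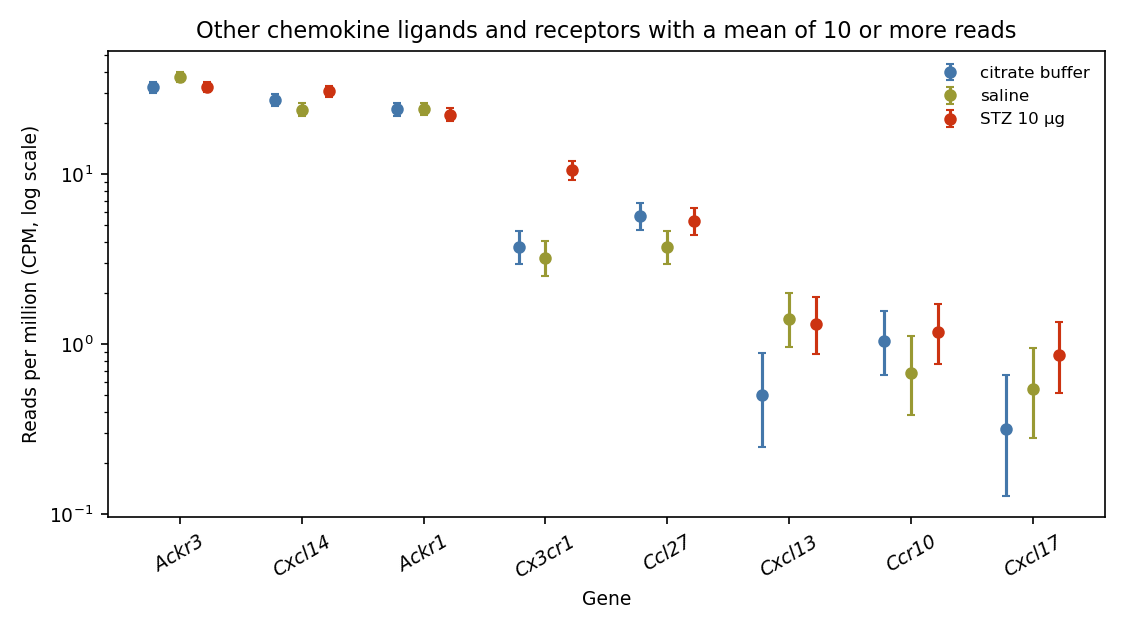
CPM, the reads of a gene scaled to the library total (log scale), for 8 other chemokine ligand and receptor genes with a mean of at least 10 reads, 1 point per library, with exact Poisson 95% intervals for counting error. Cx3cr1 is the gene whose STZ point (233 reads) stands clear of both controls (82 and 71 reads).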

How the data were processed

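RNA from dissected rat retinas was made into libraries with an Illumina TruSeq RNA kit and sequenced on an Illumina instrument. The authors checked reads with FastQC, trimmed them with a Perl script, mapped them with TopHat2 allowing up to 2 mismatches, discarded reads with several genomic locations and computed FPKM in R. The genome build in the submitters' processing notes is rn6, and the annotation and the read counter are not given in the sources used here. For each gene and library the authors deposited an FPKM, a TPM and an estimated count. The estimated counts as deposited are fractional for 2858 genes in at least 1 library and were rounded to whole numbers. Rows of near-identical copies lose reads when multi-mapped reads are discarded.

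The fold, its thresholds (0.65 and its reciprocal, 1.54) and the pseudocount of 1 FPKM follow the methods of the study. Count ratios have exact Clopper-Pearson intervals and single counts exact Poisson intervals, at the 95% level. A count of 0 was compared at a limit of 3 counts. With 1 library in each of the 3 groups no test was possible. No count model was fitted. The 9 genes and all lists were chosen with earlier results of these data known. All 9 genes were named whatever their values. Of the other ligands and receptors, genes averaging 10 counts or more, or past a threshold in STZ against both controls were named, and of shedding, signaling and cytokine genes those past it against both controls and the most abundant of each list. The 3 most abundant genes of a marker list were named. Neighbors, receptors, overlapping genes, Pf4, Mpo, S100a8, Mip and some cytokines outside this rule were named after their values were seen. Values of some single genes under this rule are not reported here. Of the identifiers, 17120 matched RefSeq (GRCr8), used for names, neighbors and promoters. The following were tried as alternatives: 0.1 as the pseudocount, 2 and 0.5 as thresholds, only genes averaging 10 counts or more, scaling by TMM (edgeR 4.0.16: 0.985, 1.00 and 1.01 in Buffer, Saline and STZ) or median of ratios (DESeq2 1.42.0), CPM from the counts, the deposited TPM, the mean of both controls, the counting interval and, chosen after seeing the data, FPKM with 1 length per gene. The calculations were tested on simulated data. Python 3.11.15 with pandas 2.3.3, scipy 1.17.1 and matplotlib 3.10.9, and R 4.3.3, were used.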

Additional observations from a re-analysis of the deposited data

How the results depend on the processing

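The number of the 9 genes past the thresholds in STZ against Buffer, 1 as reported, was 4 with a pseudocount of 0.1 FPKM, 0 with thresholds of 2 and 0.5, 3 with the deposited TPM, 0 among genes averaging 10 counts or more and 5 by the counting interval. With CPM it was again 1, but the gene was Cxcl16 (1.59) and not Ccl3 (1.44). In STZ against Saline, 0 as reported, it was 5 with the pseudocount of 0.1 (4 higher and 1 lower) and 2 by the interval. In Saline against Buffer, 0 as reported, it was 5 with the pseudocount of 0.1, 2 with TPM and 3 by the interval. Of the 47 ligands and receptors, 6, 3 and 5 passed in these comparisons as reported. They became 19, 20 and 20 with the pseudocount of 0.1, and 10, 7 and 8 by the interval. The interval was applied in these counts to genes of any mean, unlike the rule used above. Shares of all genes under these settings are not given here, so nothing particular to chemokine genes is read from the changes. With thresholds of 2 and 0.5 they became 3 in STZ against Buffer and 1 in Saline against Buffer, and with CPM 3 and 2. With a minimum mean of 10 counts, the genes that passed in STZ against Buffer were Cx3cr1, Cxcl13 and Cxcl17. In STZ against Saline only Cx3cr1 then passed, and in Saline against Buffer Cxcl13 (higher) and Ccl27 (lower). The other counts were within 1.5 times those reported. Fewer genes are tested with the minimum mean, and the cause of the other changes was not tested. All 152 recomputed folds of single genes stayed within the counting interval around the reported fold, which has no upper bound where a count was 0. The fold in STZ against Buffer, or against the mean of both controls, ran from 0.714 to 0.743 for Cxcr4 and 1.18 to 1.25 for Cxcl12. It ran from 1.22 to 1.93 for Cxcl16, 1.44 to 3.64 for Ccl3 and 1.32 to 4.50 for Cxcl10. For Ccl4, the one of these whose direction turned, it ran from 0.841 to 1.52. The 0.743 of Cxcr4 and the 1.22 of Cxcl16 came from the mean of both controls. Against Buffer alone, the lowest fold of Cxcl16 was 1.46. No paired analysis was possible because each group has 1 library, and for the same reason no replicate could be left out. The 5 least abundant of the 9 genes had 14 reads or fewer, and at this depth only differences of several fold are outside counting error for them. Of the 4 most abundant, Cxcr4 and Cxcl12 had intervals that left out 1 in STZ against both controls. Cxcl16 had one against Buffer only, and Cx3cl1 against neither. None of the 4 has an estimate of the spread between animals.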

Other observations

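Genes that act beside the chemokine receptors were also measured. Of 38 genes for signaling below the receptors, 5 were higher in STZ than in Buffer by the fold rule, where 2.25% of all genes were. Against Saline 3 were higher, where 2.04% of all genes were. In either comparison 0 were lower, where 1.04% of all genes were against Buffer and 1.75% against Saline. Rac2, the hematopoietic Rac GTPase of chemotaxis and of the phagocyte oxidase, had 38 reads in Buffer, 43 in Saline and 192 in STZ, a count ratio of 5.04 (3.55 to 7.34) against Buffer and 4.45 (3.19 to 6.35) against Saline. Vav1, a guanine nucleotide exchange factor of hematopoietic cells, had 16, 32 and 82 reads, with ratios of 5.12 (2.97 to 9.37) and 2.56 (1.68 to 3.98). The most abundant gene of the list, the G protein subunit Gnb1, had 12991, 12522 and 13995 reads. The microglia markers were higher in the same library, and their part in these reads was not tested.

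Of 5 genes for shedding and degradation of chemokines, Mmp2, a metalloproteinase that can cleave Cxcl12, was the one that passed against both controls. It had 243 reads in Buffer, 368 in Saline and 698 in STZ, with ratios of 2.87 (2.47 to 3.33) and 1.89 (1.67 to 2.15). Adam10, the most abundant of them and the sheddase of Cx3cl1 and Cxcl16, had 2754, 2562 and 2657 reads. Of 8 cytokines that can induce chemokines, 6 had a value, and Il18 passed against both controls with 5, 8 and 24 reads. Tnf had 2, 1 and 3 reads, and Il1b had 5, 6 and 3. Il1a had 1, 1 and 15 reads.

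Further marker lists were those of neurons and blood. The 6 ganglion cell markers, led by Nefl, Sncg and Rbpms, summed to 4500, 4303 and 5188 reads in the same order, a ratio of 1.15 for STZ against Buffer. The 6 photoreceptor precursor markers, led by Crx, Otx2 and Nrl, summed to 39724, 36880 and 43871, a ratio of 1.10. The 4 blood markers with a value, led by Hba1, Hbb and Hbb-b1, summed to 998, 1396 and 773, a ratio of 0.773 for STZ against Buffer, 0.552 for STZ against Saline and 1.40 for Saline against Buffer. Hba1 had 520, 705 and 372 reads and Hbb had 435, 561 and 326, while Hbb-b1 had 34, 116 and 69 and was higher in STZ than in Buffer, with a ratio of 2.03 (1.33 to 3.15).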
